A study of Felis catus with 8 samples.

Results

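Liver cells store triglyceride in lipid droplets, and the genes described here encode proteins that coat those droplets or bring fatty acids to them. The set names 10 genes: the perilipins PLIN2, PLIN3, PLIN4 and PLIN5, the droplet proteins CIDEB and CIDEC, the lipase inhibitor G0S2, and the fatty acid handling genes FABP1, CD36 and ACSL1. Members were the probe sets that the platform annotation of the array assigns to exactly 1 gene, that gene being one of the 10. This gave 87 of the 257101 probe sets and covered 8 of the 10 genes. CIDEB appears only on 19 probe sets that it shares with other genes, and PLIN5 is named on none, so neither was analysed here. Probe sets whose mean over the arrays lay above the median of all probe sets (log2 2.43) were kept, 44 of the 87, and were averaged per gene.

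The samples were livers of 9-month-old male domestic cats, snap-frozen, and each of the 4 diets is represented by 2 arrays. Controls ate chow, and the MSG diet added 1.125% monosodium glutamate (MSG) to it. Trans fat made up 8.6% and high-fructose corn syrup (HFCS) 24% of the trans-fat/HFCS diet. The combined diet contained these and 1.125% MSG. Mothers were fed the diet from 3 weeks before mating and through nursing, and their sons were weaned onto it, so no diet can be read apart from exposure before birth. Arrays carry different cat numbers, but litters and pooling are not given, so p-values cover the spread between these arrays, which may be partly technical. The array was designed for human genes, and a probe set reads cat RNA poorly where the 2 species differ in sequence.

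The median intensity of the 8 arrays ranged from 5.25 to 5.28, and precision is limited by the few arrays. The tissue label was checked against 9 hepatocyte markers, whose summed intensity lay between 2776 and 3238 on every array, and none of which passed the test for either diet factor. The sum of 11 skeletal muscle markers was 753 and 772 on the 2 trans-fat/HFCS arrays and between 175 and 201 on the other 6, so these arrays stand apart, and the part of this in the results below was not tested. Of these 11 markers 9 passed for trans fat and HFCS, all higher, and 7 for MSG, all lower. Sums for 5 adipocyte markers (99.3 to 130), 9 macrophage markers (252 to 277) and 6 endothelial markers (145 to 185) spanned narrower ranges. For trans fat and HFCS 2 of the 5 adipocyte markers passed, ADIPOQ higher (log2 0.58) and LEP lower (-0.63), and 1 of the 9 macrophage markers, CD68 (0.78), was higher. No endothelial marker passed. None of the summed markers was at 0. In bulk liver, fewer cells of a type and less RNA per cell cannot be told apart.

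A lipid droplet is a core of triglyceride and sterol ester under a single layer of phospholipid, on which perilipins sit and control the access of lipases. PLIN2 is the main perilipin of hepatocytes and is degraded when it is not bound to a droplet, and its protein level is used as a marker of hepatic fat. CD36 takes up fatty acids at the plasma membrane, FABP1 carries them in the cytosol, and ACSL1 activates them to acyl-CoA for oxidation or esterification. Many of these genes are targets of the lipid-activated receptors PPARA and PPARG in human or mouse liver.

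None of the 8 genes passed limma's test for any difference among the 4 diets at a Benjamini-Hochberg adjusted p under 0.05, where 3.2% of all 17910 genes did. None passed for trans fat and HFCS (background 7.66%), for MSG (0.329%) or for their interaction (0.151%). Likewise none passed on the trans-fat/HFCS diet (2.48%), the MSG diet (0.296%) or the combined diet (1.16%) against control. Unadjusted p-values under 0.05 were found for 4 of the 8 in the 4-diet test (19.7% of all genes), for 3 with trans fat and HFCS (24.5%) and for 5 with MSG (7.91%). They were found for 2 in the interaction (9.07%), for 3 on the trans-fat/HFCS diet (18.3%), for 3 on the MSG diet (7.64%) and for 1 on the combined diet (16.5%). The median log2 change of the 8 genes was -0.13 with trans fat and HFCS and 0.00 with MSG, against 0.02 and 0.00 over all genes. The main effects set 4 arrays against 4, the interaction uses all 8, and each diet is set against control with 2 arrays a side. In no gene did the 4 arrays with MSG, or the 4 with trans fat and HFCS, lie apart from the other 4 (background 2.68% and 15%). The plot of each gene by array shows this overlap.

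**Figure D1:**
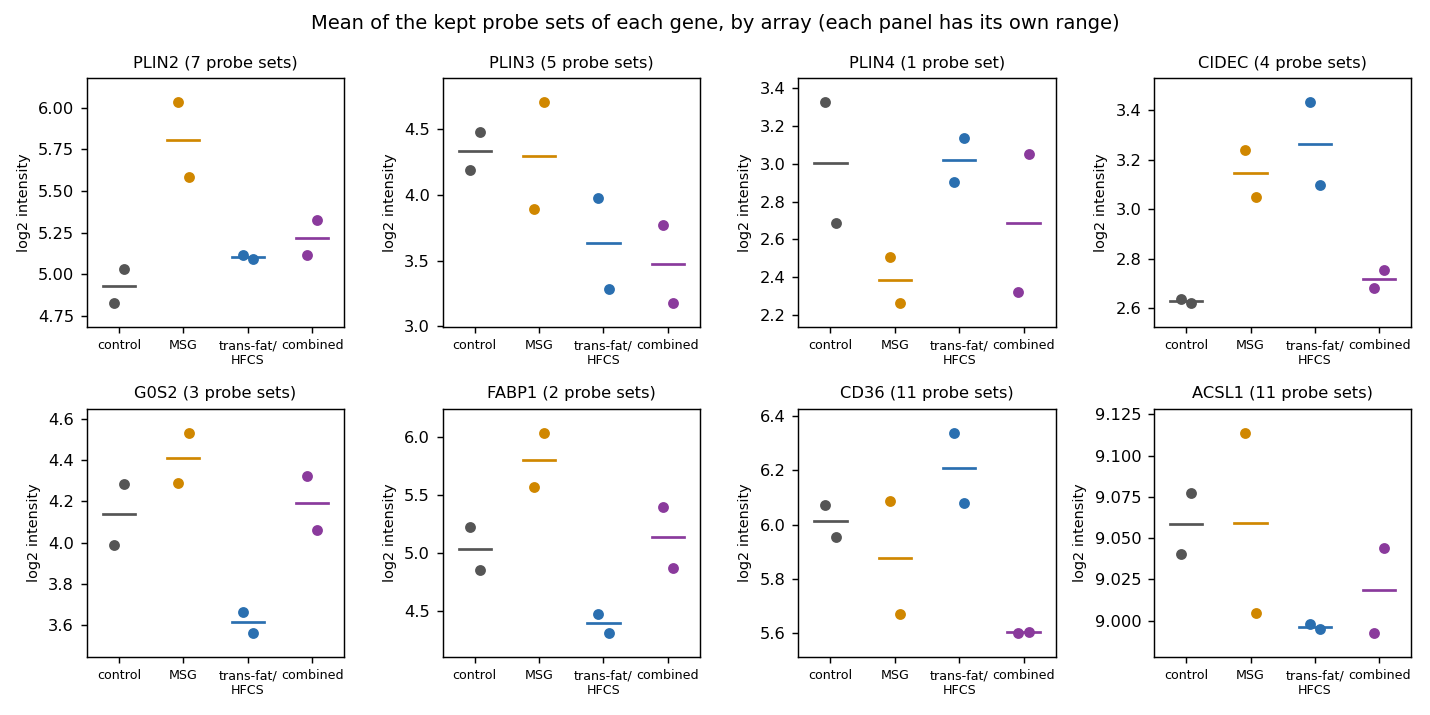
Mean log2 intensity of the kept probe sets of each gene (vertical axis) on each of the 8 arrays, grouped by diet (horizontal axis). Points are arrays, lines are the mean of 2 arrays, and each panel has its own range; PLIN2 and FABP1 have their highest mean on the MSG diet, while all ACSL1 arrays lie between 8.99 and 9.11.

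PLIN2 stood at log2 4.83 and 5.03 on the control arrays and at 6.03 and 5.59 on the MSG arrays. It stood at 5.12 and 5.09 with trans fat and HFCS, and at 5.12 and 5.33 on the combined diet. Both MSG arrays were above all 6 others and both control arrays were below all others. The trans-fat/HFCS and combined arrays overlapped. The MSG main effect was 0.50 (SE 0.14, unadjusted p = 0.006, adjusted p = 0.36 in limma). On chow alone the MSG diet was 1.84-fold above control (log2 0.88, SE 0.20, adjusted p = 0.2 in limma). Trans fat and HFCS gave -0.21 (SE 0.14, adjusted p = 0.4 in limma).

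The gene value of PLIN2 mixes 7 kept probe sets of unlike brightness. Only 2 of them, 8160302 and 8160299, averaged 6 or more on the log2 scale, and the other 5 averaged between 2.45 and 5.11. Probe set 8160302 read 9.75 and 9.78 on control, 10.80 and 10.66 on MSG, 9.71 and 9.70 on trans fat and HFCS, and 10.23 and 10.32 on the combined diet. Probe set 8160299 read 9.32 and 9.39, then 10.41 and 10.46, 9.50 and 9.27, and 9.89 and 10 in the same order. On both probe sets every MSG and combined array lay above every array without MSG, while 2.69% of all kept probe sets with 1 gene had their MSG arrays apart either way, above or below. Among the 5 dimmer probe sets MSG main effects lay between -0.19 and 1.53, and none separated the arrays in this way.

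A limit of log2 6 on the mean of a probe set was therefore added after these values had been seen, and the fit was repeated on all 8751 genes that keep a probe set. Under it PLIN2 averaged 9.56 ± 0.03 on control, 10.58 ± 0.03 on MSG, 9.55 ± 0.08 on trans fat and HFCS and 10.11 ± 0.07 on the combined diet (SD, n = 2). The MSG main effect was 1.73-fold (log2 0.79, SE 0.08, adjusted p = 0.0065 in limma), where 1.63% of genes passed. MSG on chow gave 2.03-fold (log2 1.02, SE 0.12, adjusted p = 0.0087 in limma), and the combined diet was 1.46-fold above control (adjusted p = 0.038), where 1.57% and 9.38% of genes passed. All 4 arrays with MSG lay above the other 4, and 3.3% of these genes had such a separation either way. The trans-fat/HFCS diet differed from control by -0.02. The difference with MSG was 1.02 on chow and 0.56 on the trans-fat/HFCS base, but the interaction of -0.46 did not pass (SE 0.17, adjusted p = 0.29 in limma, background 0.971%).

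These calls rested on that limit. With the brightest probe set per gene, PLIN2 passed the 4-diet test (adjusted p = 0.036 in limma, background 6.8%) but its MSG main effect of 0.76 did not (adjusted p = 0.062, background 0.592%). Under the added limit the MSG main effect lay between 0.76 and 0.82 without any 1 array, and failed only without control array 1 (adjusted p = 0.055 in limma). The MSG diet call on chow ended without either control array or without MSG array 1 (adjusted p between 0.061 and 0.11), and the combined-diet call ended without any 1 array other than an MSG array. The combined-diet call also ended with the replicate number as a block (adjusted p = 0.07) and without both trans-fat/HFCS arrays (adjusted p = 0.056). When each of the 44 kept probe sets was tested on its own, across 111624 probe sets, none passed in any of the comparisons. Of all probe sets 1.02% passed there in the 4-diet test, 2.45% for trans fat and HFCS, 0.151% for MSG and 0.0618% for the interaction. On the trans-fat/HFCS, MSG and combined diets against control the shares were 0.927%, 0.12% and 0.0645%. The smallest adjusted p for MSG among the PLIN2 probe sets was then 0.35 in limma.

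**Figure D2:**
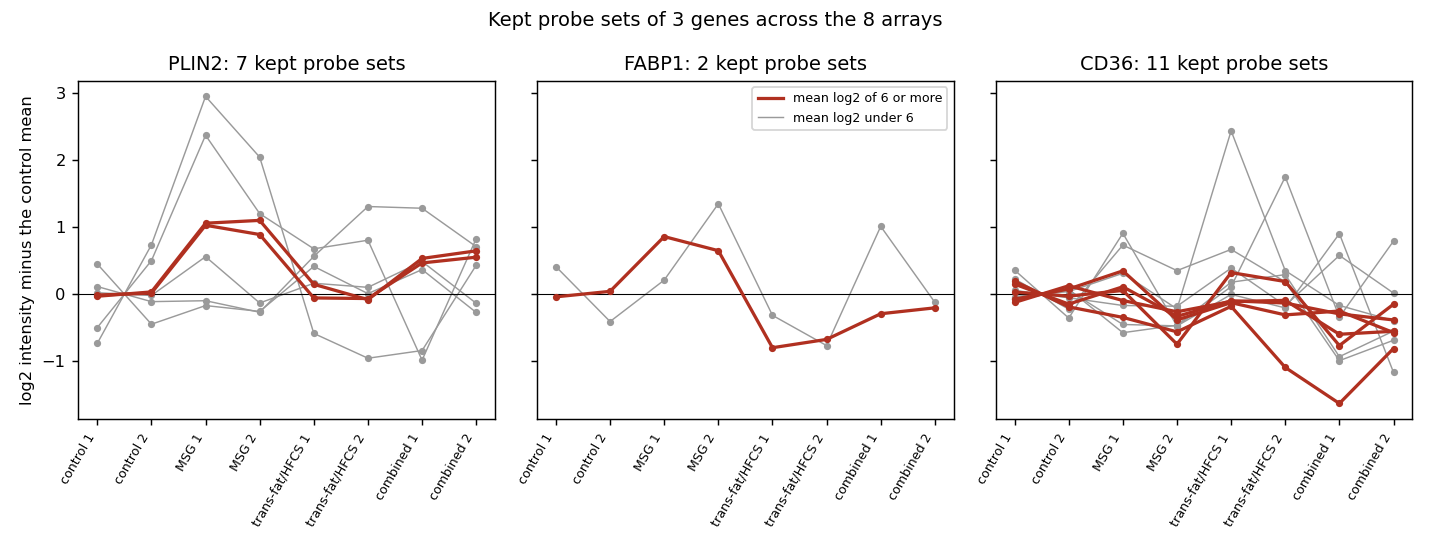
Log2 intensity of each kept probe set minus its control mean (vertical axis) on the 8 arrays (horizontal axis) for PLIN2, FABP1 and CD36. Thick red lines are probe sets with a mean log2 of 6 or more and thin grey lines dimmer ones; the 2 red PLIN2 lines average 0.96 and 1.08 on the MSG arrays and 0.51 and 0.59 on the combined arrays, while grey lines scatter.

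PLIN3, a perilipin found in many tissues that moves from the cytosol to small droplets, had its lower values with trans fat and HFCS. It stood at log2 4.19 and 4.48 on control, 3.89 and 4.70 on MSG, 3.98 and 3.28 on trans fat and HFCS, and 3.77 and 3.18 on the combined diet. Trans fat and HFCS gave -0.76 (SE 0.23, adjusted p = 0.084 in limma), and all 5 kept probe sets had a negative change, between -1.40 and -0.18. The combined diet differed from control by -0.86 (SE 0.33, adjusted p = 0.24 in limma). The groups overlapped, since MSG array 1 lay below trans-fat/HFCS array 1. On the brightest probe set the 2 arrays of a diet were far apart, at 6.60 and 4.86 with trans fat and HFCS and at 6.56 and 4.45 on the combined diet.

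PLIN4, a perilipin of adipose tissue and muscle, kept 1 of its 4 probe sets, with values between 2.27 and 3.32 over all arrays. Its trans-fat/HFCS effect was 0.16 (SE 0.20, adjusted p = 0.69 in limma), and MSG gave -0.48 (SE 0.20, adjusted p = 0.61 in limma). The diets overlapped. On the 2 arrays with high skeletal muscle markers PLIN4 stood at 2.90 and 3.13, against 3.32 and 2.69 on control.

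CIDEC, which enlarges droplets by passing lipid from one to another, gave the clearest crossed pattern. It stood at 2.64 and 2.62 on control, 3.24 and 3.05 on MSG, 3.43 and 3.10 on trans fat and HFCS, and 2.68 and 2.75 on the combined diet. The diets with a single addition lay above control and above the combined diet on every array. How many of all genes have this separation was not counted. The MSG effect was 0.51 on chow and -0.55 on the trans-fat/HFCS base, and the interaction of -1.06 had an unadjusted p of 0.0022 but did not pass (SE 0.25, adjusted p = 0.25 in limma, background 0.151%). The trans-fat/HFCS diet was 0.63 above control (SE 0.18, adjusted p = 0.1 in limma), and the MSG diet 0.51 above it (adjusted p = 0.49). The trans-fat/HFCS main effect was 0.10 (SE 0.13, adjusted p = 0.66 in limma). All 4 kept probe sets were dim, averaging between 2.48 and 3.23, and all 4 had a negative interaction. It was -2.03 and -1.46 on probe sets 8085250 and 8085252, but -0.61 and -0.15 on 8085281 and 8085277. On these last 2 the MSG diet differed from control by only 0.03 and by -0.44, so the crossed pattern rested on the first 2. CIDEC is also a gene of adipocytes, whose summed markers were 124 and 130 on control, 115 and 125 on MSG, 119 and 99.3 on trans fat and HFCS, and 109 on both combined arrays. Among them the mean of ADIPOQ was 2.84 on control, 2.83 on MSG, 3.34 on trans fat and HFCS and 3.51 on the combined diet, and that of LEP was 5.75, 5.76, 5.35 and 4.89. Their part in the result was not tested.

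G0S2, an inhibitor of the main triglyceride lipase PNPLA2, was lowest with trans fat and HFCS alone. It stood at 3.99 and 4.29 on control, 4.29 and 4.53 on MSG, 3.66 and 3.56 on trans fat and HFCS, and 4.32 and 4.06 on the combined diet. Both trans-fat/HFCS arrays lay below all 6 others, among which the combined arrays overlapped with control and with MSG. Trans fat and HFCS gave -0.37 (SE 0.13, adjusted p = 0.13 in limma), and MSG gave 0.43 (SE 0.13, adjusted p = 0.43 in limma). The trans-fat/HFCS diet differed from control by -0.52 (SE 0.19, adjusted p = 0.18 in limma). The MSG effect rested on probe set 7909445, at 1.33, whereas the other 2 gave 0.10 and -0.15. PNPLA2 itself stood 0.36 higher with trans fat and HFCS and did not pass (SE 0.16, adjusted p = 0.21 in limma).

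FABP1, the abundant fatty acid binding protein of hepatocytes, had its highest level on the MSG diet and its lowest on the trans-fat/HFCS diet. Its 2 kept probe sets averaged 5.22 and 4.85 on control, 5.57 and 6.04 on MSG, 4.48 and 4.31 on trans fat and HFCS, and 5.40 and 4.87 on the combined diet. Both MSG arrays lay above all others and both trans-fat/HFCS arrays below, with control and combined arrays between. FABP1 passed for neither factor in this average. Trans fat and HFCS gave -0.66 (SE 0.17), a 1.57-fold lower level with an adjusted p of 0.052 in limma. MSG gave 0.75 (SE 0.17, adjusted p = 0.19 in limma), and the 4-diet test an adjusted p of 0.058. The MSG difference was 0.77 on chow (adjusted p = 0.43 in limma) and 0.74 on the trans-fat/HFCS base. The trans-fat/HFCS diet differed from control by -0.64 (SE 0.24, adjusted p = 0.21 in limma).

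The brighter FABP1 probe set, 8053659, carried the steadier values. It read 7.63 and 7.72 on control, 8.53 and 8.32 on MSG, 6.87 and 7.00 on trans fat and HFCS, and 7.38 and 7.47 on the combined diet. All 4 arrays with trans fat and HFCS lay below the other 4, a separation that 10.9% of kept probe sets and 25.2% of genes above the limit of log2 6 had either way, and within each base diet both MSG arrays lay above both arrays without it. With the brightest probe set, or with a filter at the 75th percentile, FABP1 passed for trans fat and HFCS at -0.87 (adjusted p of 0.0077 and 0.0067 in limma), settings under which 12.2% and 14.1% of all genes passed. Both settings, like the limit of log2 6, read FABP1 from this 1 probe set, so they are not separate evidence. Tested on its own among all kept probe sets with 1 gene, it did not pass (adjusted p = 0.064 in limma, background 2.45%). Under the limit of log2 6 it fell 1.83-fold (SE 0.09, adjusted p = 0.0016 in limma, background 22.5%), and this call held without any 1 array. Without both trans-fat/HFCS arrays the fit compared the combined diet with the MSG diet. FABP1 was lower there (-1.003, adjusted p = 0.015 in limma), a difference that is not the main effect. On the trans-fat/HFCS diet alone it was 0.74 below control on the log2 scale (log2 -0.74, adjusted p = 0.019 in limma, background 10.7%), a call that ended without either control or either trans-fat/HFCS array (adjusted p up to 0.12). MSG gave 0.62 under that limit (SE 0.09, adjusted p = 0.029 in limma), and the call was lost whichever array was left out (adjusted p between 0.053 and 0.17). It also ended with the replicate number as a block (adjusted p = 0.077 in limma). Without both trans-fat/HFCS arrays the fit compared the MSG diet with control, and this difference of 0.75 did not pass (adjusted p = 0.098 in limma).

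**Figure D3:**
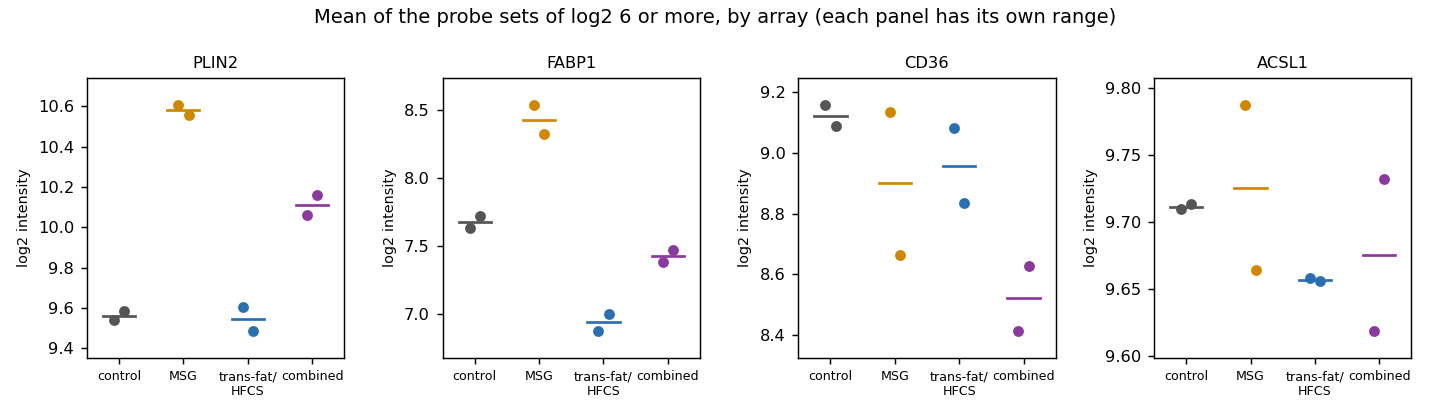
Mean log2 intensity of the probe sets that average log2 6 or more (vertical axis) on each array, by diet (horizontal axis), for PLIN2, FABP1, CD36 and ACSL1; points are arrays, lines are means of 2, and each panel has its own range. All 4 MSG-fed arrays lie above the other 4 for PLIN2, and all 4 arrays with trans fat and HFCS below the other 4 for FABP1.

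CD36, the fatty acid translocase, is also made by macrophages and endothelium in human and mouse. It stood at 6.07 and 5.95 on control, 6.09 and 5.67 on MSG, 6.34 and 6.08 on trans fat and HFCS, and 5.60 and 5.61 on the combined diet. Both combined-diet arrays were the lowest of the 8. The MSG arrays overlapped with control and with trans fat and HFCS, while both trans-fat/HFCS arrays lay above both control arrays. On the probe sets of log2 6 or more this order was reversed, and the trans-fat/HFCS diet differed from control by -0.16. Trans fat and HFCS gave -0.04 (SE 0.14, adjusted p = 0.89 in limma), with a 95% confidence interval from -0.35 to 0.27. MSG gave -0.37 (SE 0.14, adjusted p = 0.54 in limma), negative on 9 of 11 kept probe sets. Probe set 8133890, with the most negative combined-diet difference of the bright ones (-1.22), stood at 11.19 and 10.81 on control and 9.36 and 10.18 on the combined diet. Under the limit of log2 6 the combined diet was 0.60 below control (SE 0.19, adjusted p = 0.098 in limma). Summed macrophage markers were 252 and 261 on control and 263 and 258 on the combined diet, and endothelial markers 166 and 165 against 167 and 154.

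ACSL1, the main long-chain acyl-CoA synthetase of liver and adipose tissue, varied least. Its 11 kept probe sets averaged between 8.99 and 9.11 on the 8 arrays. The trans-fat/HFCS effect was -0.05 (SE 0.11), with a 95% confidence interval from -0.30 to 0.20, and the MSG effect 0.01, with an interval from -0.24 to 0.26. The adjusted p in limma was 0.82 for trans fat and HFCS and 0.99 for MSG. Of the 11 probe sets, 10 averaged 6 or more, the most of the 8 genes.

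Other genes of droplet formation, lipolysis, fatty acid uptake and their regulation were read from 4 lists of 43 genes, of which 42 were tested and FABP4 was not. With trans fat and HFCS 2 of the 42 fell and none rose, against 3.22% and 4.44% of all genes. Their median log2 change was 0.02, the same as over all genes. Both that fell are long-chain acyl-CoA synthetases, as is ACSL1. Among 13 droplet formation and coat genes, 7 lipolysis genes and 5 regulators none passed for trans fat and HFCS, and no gene of the 42 passed for MSG or for the interaction. For MSG, 1 of them passed under each of 3 other settings: ACSL4 with no filter on dim probe sets or with an intensity trend, and MGLL under the limit of log2 6 (-0.57, adjusted p = 0.04 in limma). Of all genes 0.332%, 0.525% and 1.63% passed there in that order.

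ACSL4, which activates arachidonic acid and other polyunsaturated fatty acids, fell 2.08-fold with trans fat and HFCS (log2 -1.06, SE 0.11, adjusted p = 0.0015 in limma). It stood at 8.74 and 8.64 on control, 7.88 and 7.75 on MSG, 7.33 and 7.33 on trans fat and HFCS, and 7.05 and 7.08 on the combined diet. The 4 diets did not overlap in any array, and the share of all genes with this separation was not counted. Of its 15 kept probe sets 14 were lower with trans fat and HFCS (median of all 15, -1.20). It was 2.58-fold lower than control on the trans-fat/HFCS diet (adjusted p = 0.0043 in limma) and 3.1-fold lower on the combined diet (adjusted p = 0.0058). With the median of probe sets neither diet passed (adjusted p of 0.078 and 0.073 in limma). Without control array 1 both calls also ended (-1.31 and -1.58), as did the combined-diet call without control array 2 (-1.68). Those fits leave 1 control array, and the loss on the combined diet was not particular to ACSL4. The MSG main effect of -0.57 (SE 0.11) did not pass (adjusted p = 0.1 in limma), but passed with no filter on dim probe sets (-0.47, adjusted p = 0.025) and with an intensity trend (adjusted p = 0.0089). The difference on the MSG diet, -0.88, passed under both of these settings and under the limit of log2 6 (adjusted p of 0.015, 0.0052 and 0.048 in limma). Of all genes 0.332% and 0.525% passed for the MSG main effect under the first 2 settings. On the MSG diet 0.267%, 0.441% and 1.57% passed in that order. Without both trans-fat/HFCS arrays the combined diet stood 0.75 below the MSG diet and did not pass (log2 -0.75, adjusted p = 0.075).

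ACSL3, a synthetase found on the endoplasmic reticulum and on forming droplets, fell 1.74-fold with trans fat and HFCS (log2 -0.80, SE 0.12, adjusted p = 0.007 in limma). It stood at 6.19 and 6.45 on control, 6.25 and 6.18 on MSG, 5.53 and 5.38 on trans fat and HFCS, and 5.44 and 5.53 on the combined diet. All 4 arrays with trans fat and HFCS lay below the other 4, as in 6.72% of all genes. Of 8 kept probe sets 7 had a negative change. The call ended with the median of probe sets (-0.71, adjusted p = 0.13) and without both trans-fat/HFCS arrays (-0.73, adjusted p = 0.093). ACSL3 was also 1.82-fold lower than control with trans fat and HFCS alone (adjusted p = 0.035 in limma), a call that ended without either array of the control, MSG or trans-fat/HFCS diets (adjusted p between 0.06 and 0.22). It also ended with the brightest probe set (-0.56, adjusted p = 0.12 in limma), the median of probe sets (0.27) and the limit of log2 6 (-0.67, 0.085).

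MGLL, the monoacylglycerol lipase, fell by 0.86 on the combined diet against control (SE 0.16, adjusted p = 0.042 in limma, background of lower genes 0.581%). Its probe sets disagreed. The brightest, 8090442, read 7.15 and 6.86 on control, 7.28 and 7.29 on MSG, 9.97 and 10.42 on trans fat and HFCS, and 9.39 and 9.58 on the combined diet. The other 6 all had a negative change on the combined diet, down to -2.34. With the brightest probe set the gene turned to 2.48 (adjusted p = 0.012 in limma), and leaving out any 1 array ended the call (adjusted p between 0.063 and 0.25).

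Among the other genes of smallest p for MSG were PNPLA3, a droplet lipase whose human variant is tied to fatty liver (log2 0.53, SE 0.19, adjusted p = 0.53 in limma), MGLL (-0.53, adjusted p = 0.15) and FITM1 (-0.33, adjusted p = 0.51). On the MSG diet alone these were LDAH, a droplet hydrolase (0.57, adjusted p = 0.37), PNPLA3 (0.76, adjusted p = 0.53), the droplet formation gene FITM2 (0.63, adjusted p = 0.49) and ACSL4 (-0.88, adjusted p = 0.083). For the interaction they were the bile acid and fatty acid synthetase SLC27A5 (-0.75, adjusted p = 0.43), ACSL4 (0.61, adjusted p = 0.46), FITM1 (-0.64, adjusted p = 0.46) and HILPDA, listed in the annotation as C7orf68 (-0.64, adjusted p = 0.49). LDAH was not higher on the MSG diet only. It also stood above control on the trans-fat/HFCS diet (0.73, adjusted p = 0.053 in limma) and the combined diet (0.71, adjusted p = 0.083). PPARA, which drives several of these genes, ranged over arrays from 3.87 to 5.01 and did not pass in any comparison. The plot of effect sizes shows how wide the intervals are.

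**Figure D4:**
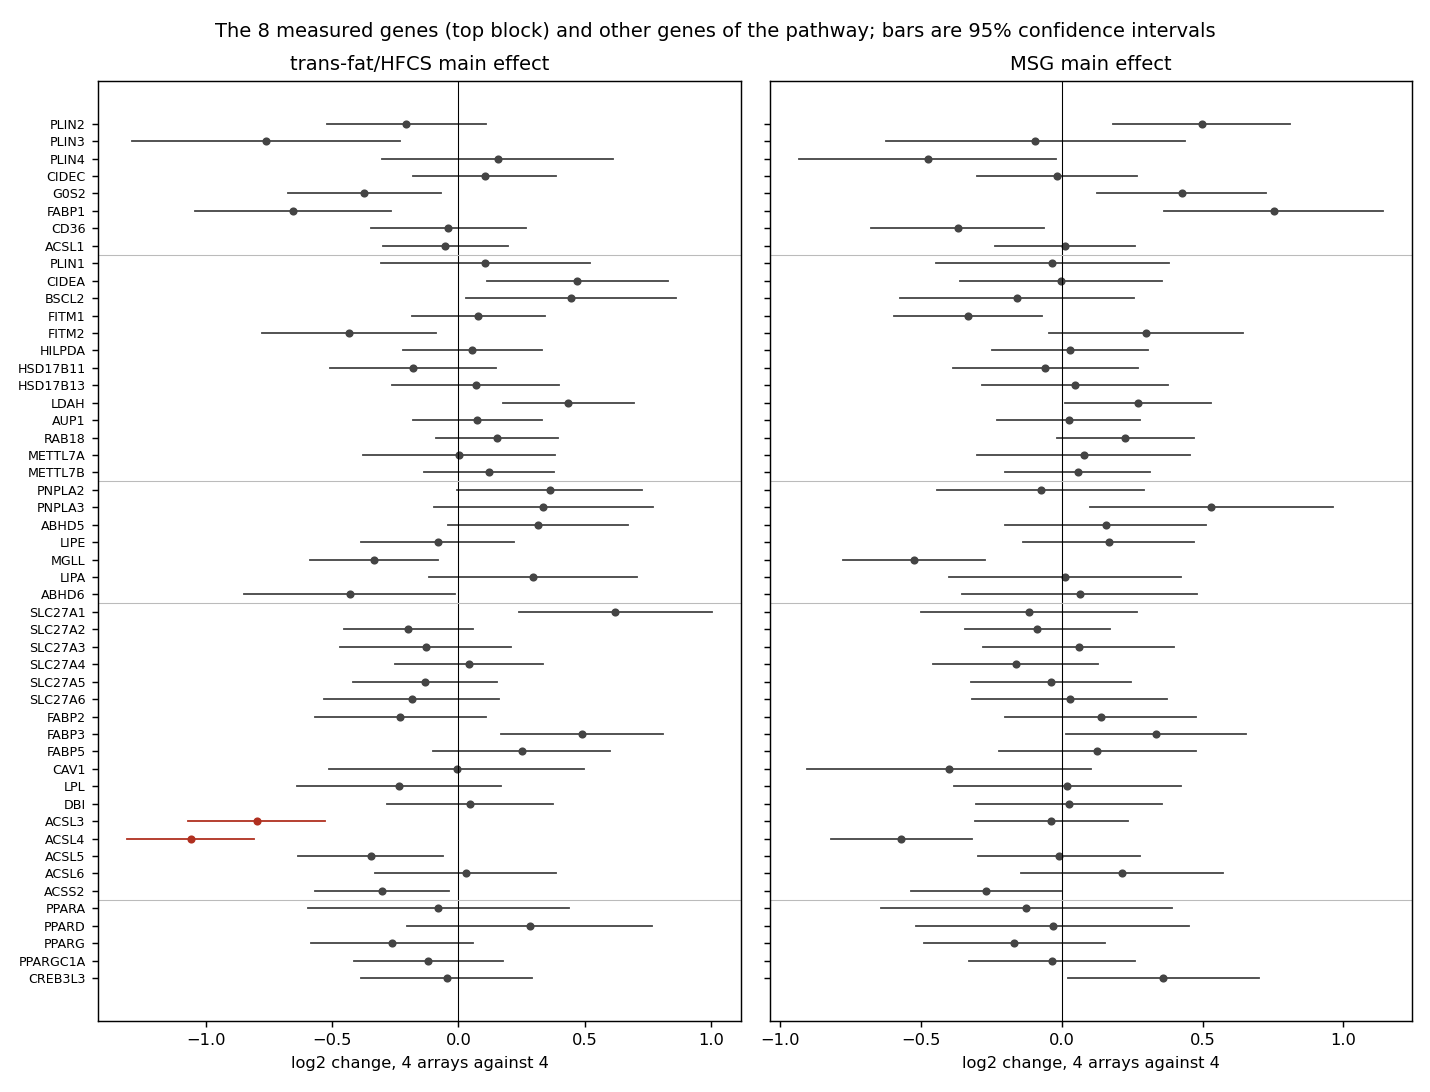
Log2 change (horizontal axis) with 95% confidence interval for the trans-fat/HFCS and the MSG main effect, 4 arrays against 4, for the 8 measured genes (top block) and 42 other genes of the pathway (blocks below: droplet formation, lipolysis, fatty acid handling, regulators). Red marks the 2 genes past an adjusted p of 0.05, ACSL3 and ACSL4, both lower with trans fat and HFCS.

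Among 14760 other named genes with at least 2 kept probe sets, those whose values over the 8 arrays were most like PLIN2 were TKTL1 (Pearson r 0.964), LMAN1 (0.960), KRTAP20-3 (0.947), EFEMP1 (0.942) and INPP1 (0.937). Those most like CD36 were PCDHB15 (0.977), AMELY (0.963), CDC37L1 (0.961), CYP3A4 (0.943) and MBNL3 (0.939). With 8 arrays in 4 diets and this many candidates, values of this size describe the ranking only.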

How the data were processed

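The authors deposited normalized intensity values on a linear scale, 1 for each probe set (about an exon) and array. GCRMA, Partek and hg19 are named without role or version, per the submitters' processing notes. Total RNA (250 ng) was made into biotin-labelled DNA, per the labels' protocols. Here values were log2 transformed. Of 257101 probe sets, 224320 have 1 gene in the platform annotation, 10159 several and 22622 none. The 111624 probe sets with 1 gene and a mean above log2 2.43 were averaged per gene, giving 17910 genes. No genome or sequence was used, and no coordinates are given. R 4.3.3 and limma 3.58.1 (lmFit, eBayes) fitted the 4 diets in 1 model of all 8 arrays (4 residual degrees of freedom, prior 5.01). Tests were two-sided, with Benjamini-Hochberg adjustment over all genes. Errors beside log2 changes are limma's standard errors.

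Members and lists were chosen with earlier results of these data known. All members are named with their trans-fat/HFCS effect; other effects are given where the unadjusted p was under 0.05 or a result turns on them. Of the other pathway genes, those past the threshold are named, or else the 4 of smallest p. HILPDA and LDAH were matched by older symbols. Alternatives were other filters (none, the 75th percentile of log2 3.7, and log2 6, added later), other summaries of probe sets, quantile normalization, an intensity trend, a replicate block, and leaving out arrays. The fit was also run on simulated data with independent noise on each array, as a check of the code that does not bear on the results here.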

Additional observations from a re-analysis of the deposited data

Results flagged for a closer look

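In 3 genes the effect of trans fat and HFCS without MSG was opposite in direction to that with MSG. Only in CIDEC was the MSG effect also opposite on the 2 base diets. Every array of one diet lay on one side of its comparison and every array of the other diet on the opposite side. The share of all genes with such opposite directions was not counted, so whether these 3 are unusual is not known. CIDEC was higher with MSG on chow (0.51) and lower with MSG on the trans-fat/HFCS base (-0.55), and likewise higher with trans fat and HFCS without MSG (0.63) and lower with it (-0.43), an interaction of -1.06 on the log2 scale. PLIN2, as the mean of its 7 kept probe sets, was 0.17 higher with trans fat and HFCS without MSG and 0.59 lower on the log2 scale with it (log2 -0.59), an interaction of -0.76. CD36 was 0.20 higher without MSG and changed by -0.28 with it, an interaction of -0.47. The interaction itself was tested in limma and passed for none of them, with adjusted p of 0.25, 0.47 and 0.66 in that order. On the probe sets of log2 6 or more the effects of trans fat and HFCS without and with MSG were -0.02 and -0.47 for PLIN2. For CD36 they were -0.16 and -0.38 there, so in neither gene were opposite directions seen. CIDEC has no probe set that bright.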

How the results depend on the processing

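No member passed in any of the 7 comparisons as averaged per gene, but this count depended on which probe sets were read. In the 4-diet test 1 member (FABP1) passed with the 75th percentile filter, 2 with the brightest probe set (FABP1 and PLIN2), 1 with an intensity trend, and 2 with probe sets of log2 6 or more. The share of all genes passing moved at the same time, from 3.2% to 6.85%, 6.8%, 4.76% and 13.8% in that order. For trans fat and HFCS 1 member passed with no filter (G0S2, at -0.34, adjusted p = 0.044 in limma), and 1 (FABP1) with the 75th percentile filter, the brightest probe set, an intensity trend or probe sets of log2 6 or more. All of these but the intensity trend read FABP1 from the same 1 probe set. With probe sets of log2 6 or more, chosen after seeing the data, 2 members passed for MSG, 1 for the trans-fat/HFCS diet, 1 for the MSG diet and 1 for the combined diet. Without any 1 array between 0 and 1 members passed in the 4-diet test and for trans fat and HFCS, and 0 in the other comparisons. The other pathway genes that passed for trans fat and HFCS numbered 2. They numbered 4 with the 75th percentile filter, 8 with the brightest probe set and 5 with an intensity trend. With probe sets of log2 6 or more 9 passed. Without both trans-fat/HFCS arrays 0 passed, in a fit where 2 combined arrays face 2 MSG arrays. The share of all genes passing for trans fat and HFCS was 7.66%, then 14.1%, 12.2%, 9.21%, 22.5% and 1.3% under the last 5 of these settings, and 6.22% with no filter.

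Some changes turned sign, of which only that of MGLL had passed. For trans fat and HFCS, PLIN4 was -0.0077 with no filter, -0.0035 without control array 2 and -0.028 without combined array 2, with single arrays left out giving up to 0.34. CD36 was 0.0018 with no filter, 0.065 without MSG array 1 and 0.025 without trans-fat/HFCS array 2, with single arrays left out giving down to -0.14. ACSL1 was 0.0069 with no filter. Without both trans-fat/HFCS arrays CIDEC was -0.43, but that value sets the combined diet against the MSG diet and is not the main effect. For MSG, G0S2 was -0.15 with the brightest probe set and CD36 0.082 with the median of probe sets. MGLL on the combined diet, at -0.86 (adjusted p = 0.042 in limma), turned to 2.48 with its brightest probe set (adjusted p = 0.012). The causes were not tested. The 75th percentile filter left PLIN4 and CIDEC with no probe set, and the interaction could not be fitted without both trans-fat/HFCS arrays. Replicate numbers did not pair the arrays: differences between replicates 1 and 2 correlated between diets with r from -0.056 to 0.043, and with a replicate block 0 members and 2 other pathway genes passed for trans fat and HFCS, and the calls of ACSL3 on the trans-fat/HFCS diet (-0.87) and MGLL on the combined diet (-0.86) ended. Under the limit of log2 6 the block ended the calls of PLIN2 on the combined diet (0.55) and of FABP1 for MSG (0.62).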
